A study of Mus musculus with 24 samples.

Results

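The cytosolic ribosomal protein genes encode the protein subunits of the ribosome that translates nuclear messages. Members were taken by gene name, Rpl or Rps with a number, the stalk genes Rplp0, Rplp1 and Rplp2, and Rpsa, reaching 1 FPKM in 10 or more of the 24 libraries. FPKM is fragments per kilobase of gene length, scaled to the mapped total, so levels can be compared between genes. Of 54403 entries used by name, 89 matched the name rule and 84 were members. By name alone, 49 were assigned to the large 60S subunit (Rpl) and 35 to the small 40S subunit (Rps). Left out for low values were the paralogs Rpl10l, Rpl32l, Rpl39l and Rps12l1, which reached the minimum in 0 libraries, and Rpl3l, which reached it in 3 and had a mean of 0.338 FPKM. The member nearest the minimum, Rps3a3, reached it in 16 libraries and had a mean of 1.36 FPKM over the 20 libraries compared below.

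RNA was sequenced from liver tumours of FVB/N mice carrying Lap-tTA and Tet-O-MYC, in which the liver-specific Lap promoter drives the tetracycline transactivator and a human MYC transgene is on once doxycycline is withdrawn. All groups therefore carry the transgene, and it was on in all of them until treatment. Tumours were followed by magnetic resonance imaging before enrolment. Tissue was taken 7 days plus a stated number of hours into treatment, and for both RMC compounds the labels add 1 more dose for those hours. Vehicle (10 mg/kg into the peritoneum) had 3 libraries, all at 24 h. RMC-6272, a bi-steric inhibitor selective for mTOR complex 1 (mTORC1), was given weekly at 10 mg/kg into the peritoneum and was sampled once at 12 h (1 library) and in 3 libraries at each of 24, 48 and 72 h. Sorafenib, an oral multikinase inhibitor, was given at 30 mg/kg per day by gavage and was sampled at 4 h (3 libraries), 24 h (2) and 48 h (2). Doxycycline at 100 µg/ml in the drinking water, which turns the transgene off, and RMC-4627, another bi-steric mTORC1 inhibitor at 10 mg/kg, had 2 libraries each at 24 h and are given apart at the end. The labels do not say whether libraries of a group came from separate animals, so p-values measure the spread between these samples. In pieces of whole tumour, fewer cells of a type and less RNA per cell cannot be told apart.

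Each ribosome holds 1 copy of most of these proteins, and the stalk proteins are the main exception. Growing cells spend a large part of their transcription on ribosomes, and MYC is known to drive the genes of ribosome assembly and many ribosomal protein genes. The messages of ribosomal proteins are the classic TOP messages: their transcripts begin with a C followed by a run of pyrimidines, the terminal oligopyrimidine motif. mTORC1 controls how well such messages are translated, through 4EBP1 and LARP1, and LARP1 also protects them from decay. The level of a message, which is what was measured here, is therefore a separate quantity from its translation, which was not measured.

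The motif was read from RefSeq start windows of the build GRCm38.p6, which held 60 of the 84 members by symbol. In each window of 30 bases, 10 before and 20 from the annotated start on, the longest run of C and T that begins with C was taken. Windows are shown for members that the results below turn on, 5′ to 3′ on the gene's strand, with that run in capitals.
Rps6, chr4:86857348-86857377, minus strand: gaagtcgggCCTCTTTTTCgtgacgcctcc
Rpl28, chr7:4792955-4792984, plus strand: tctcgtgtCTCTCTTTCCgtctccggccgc
Rpl38, chr11:114668570-114668599, plus strand: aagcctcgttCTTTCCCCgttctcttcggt
Rpl13a, chr7:45128726-45128755, minus strand: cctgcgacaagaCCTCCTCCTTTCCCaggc
Rps10, chr17:27635225-27635254, minus strand: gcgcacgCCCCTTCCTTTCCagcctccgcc
Rps27l, the first of its windows, chr9:66946076-66946105, plus strand: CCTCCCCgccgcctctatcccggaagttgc
Rps15, chr10:80292421-80292450, plus strand: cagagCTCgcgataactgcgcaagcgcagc
Rpl41, chr10:128549149-128549178, minus strand: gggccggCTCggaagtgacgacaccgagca
Rpl7l1, chr17:46782637-46782666, minus strand: gCTgcgcaagcgcagtagctgaagcaccgg
Rps6, Rpl28 and Rps10 have runs of 10, 10 and 13 pyrimidines that span the annotated start, Rpl38 a run of 8 that begins at it, and Rpl13a a run of 14 that begins at base 3 of the annotated transcript. In Rps15, Rpl41 and the paralog Rpl7l1 the longest runs have 3, 3 and 2 bases. Over all matched members, 24 of 60 (40%) had a run of at least 8 and 39 (65%) a run of at least 5, against 10.0% and 39.5% of 26965 other genes. A run in the window is a description of these letters and not a mapped start.
In the longer promoter windows of 250 bases before to 50 after the start, searched on both strands, GGAAGT, the core of the Ets family site, was held by 50% of members and 26.5% of other genes. GGGCGG, the core of the Sp1 site, was held by 63.3% and 38.1%, and CACGTG, the E-box that MYC binds, by 10% and 8.09%. CCAAT, the core of the NF-Y site, was held by 31.7% of members and 41.1% of other genes, and TATAAA, the TATA box, by 11.7% and 15.7%.

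The members were among the most abundant messages of these tumours. They made up 11.6 to 20.1% of all summed FPKM in the 20 vehicle, RMC-6272 and sorafenib libraries, with a median of 14.5%, and 46 of the 100 genes with the highest mean were members. Mean FPKM ranged from 5703 for Rplp1, a protein of the stalk that recruits elongation factors, to 1.36 for Rps3a3, a copy of Rps3a1. Rpl36 had a mean of 3227, Rps15 of 2304, and the stalk base Rplp0 of 2261, and 20 members exceeded 1000. The low end held 9 members under 50, among them Rpl24 (2.57), Rpl6l (3.97), Rps3a2 (4.13) and Rps10 (5.83). The table also holds 298 entries named as processed copies of members, of which 75 reached 1 FPKM in 10 libraries, with 2.94 to 3.82% of the members' summed FPKM. How reads that fit both a member and a copy were counted is not given in the sources used here, so the absolute level of members with near-identical copies is uncertain. Whether this applies to the low members Rpl24 and Rps10 was not tested. Their differences below rest on the reads counted to them, 48 to 132 for Rpl24 and 217 to 691 for Rps10.

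Within the 20 libraries the members moved largely as a block. The level of 64 of 84 followed the median of the other members with r above 0.8, and the median r was 0.91 (Pearson, log2, 20 libraries, a description over libraries that also differ in depth and length bias). Among the members below 0.8 were Rpl7l1 (r = -0.22), Rps10 (-0.07), Rps4l (0.10), Rpl13a (0.45) and Rps27l (0.48). The summed 60S level stood in a nearly fixed proportion to the summed 40S level, 1.53 to 1.70 with a median of 1.63. The standard deviation of log2 values over the 20 libraries was smallest for Rpl4 (0.18), Rpl3, Rpl6, Rps3a1 and Rpl7 (0.20 each). It was largest for Rps4l (1.96), a paralog of Rps4x, then for Rpl36 (0.55), Rpl38 and Rpl41 (0.49 each) and Rpl28 (0.48). The median member had 0.34, and the median of other genes was 0.35.

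**Figure D1:**
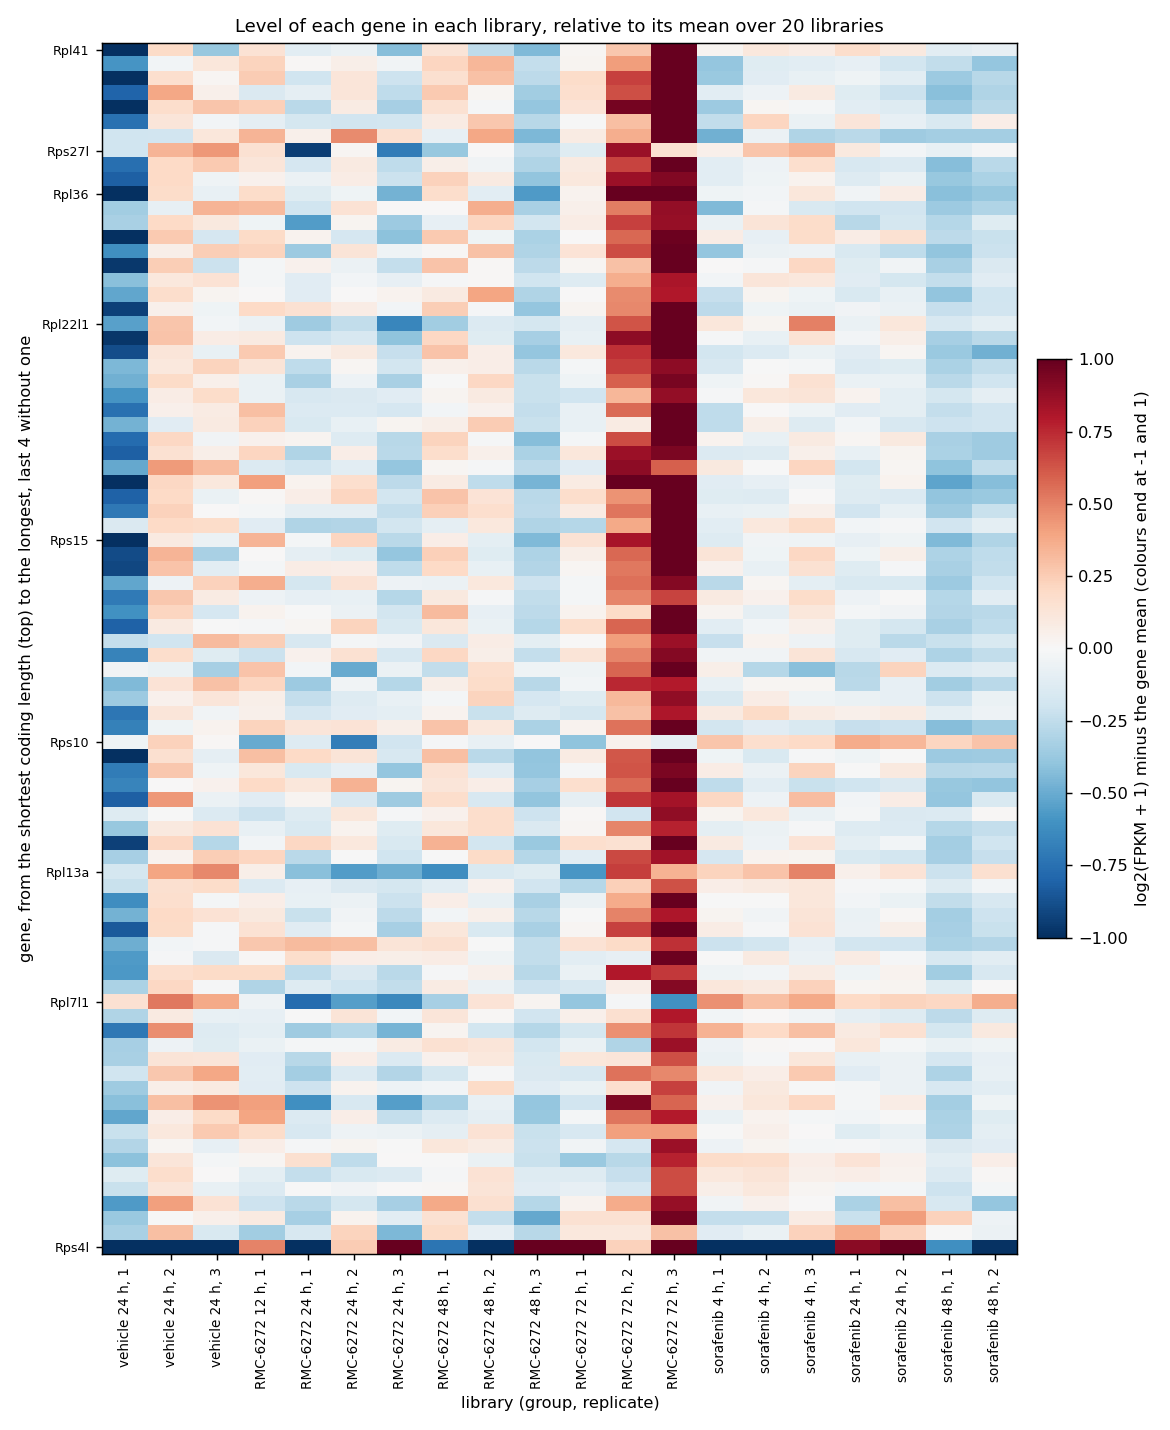
Deviation of each member's log2(FPKM + 1) from its mean over the 20 libraries (colour, log2), with members in rows, by coding length from the shortest at the top and with names at some of them, and libraries in columns by group; colours end at 1 log2 unit either way. Vehicle replicate 1 is low and RMC-6272 72 h replicates 2 and 3 are high over most rows, while Rps4l and Rpl7l1 follow other patterns.

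A pair of libraries stood apart in the whole block. Vehicle replicate 1 was the lowest of the 20 libraries for 63 members, with a median deviation of -0.57 (log2), and the lowest of its group for 81. RMC-6272 72 h replicate 3 was the highest for 74 members, with a median deviation of 0.92. It also had the smallest depth, 17.6 M reads (20 libraries: median 34.9, highest 41.7), 6.24% of FPKM in globin genes (median 0.0308%) and 10.6% in mitochondrial genes (median 4.84%). The levels of 740 other genes with transcripts under 1000 bases moved with the members across the 20 libraries (r = 0.84, rho = 0.85, and r = 0.87 without both libraries farthest from the median), given as a description, since the libraries also differ in length bias: the rank correlation of other genes' deviation with transcript length ran from -0.49 to 0.39 over the 20 libraries. Vehicle replicate 1 was also low for those short genes (-0.41). Within the members, the deviation in vehicle replicate 1 was higher at longer coding lengths (rho = 0.47 over 80 members), and that in 72 h replicate 3 was lower (rho = -0.57). On transcript length, over all 84 members, these rank correlations were weaker, at 0.23 and -0.33. The part that fragment length or RNA quality plays in the members' levels was not tested.

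The summed member level by group shows the size of this spread. In vehicle it was 37985, 66488 and 60749 FPKM in replicates 1 to 3, a mean of 55074 ± 15075 (SD, n = 3). RMC-6272 had 56030 ± 3914 at 24 h, 57630 ± 8104 at 48 h and 88483 ± 30161 at 72 h (SD, n = 3 each), and the single 12 h library had 64799. Sorafenib had 59923 ± 2184 at 4 h (n = 3), and 58298 ± 722 at 24 h and 50492 ± 2251 at 48 h (n = 2 each). Every group mean except that of 72 h lay within the range of the vehicle libraries.

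**Figure D2:**
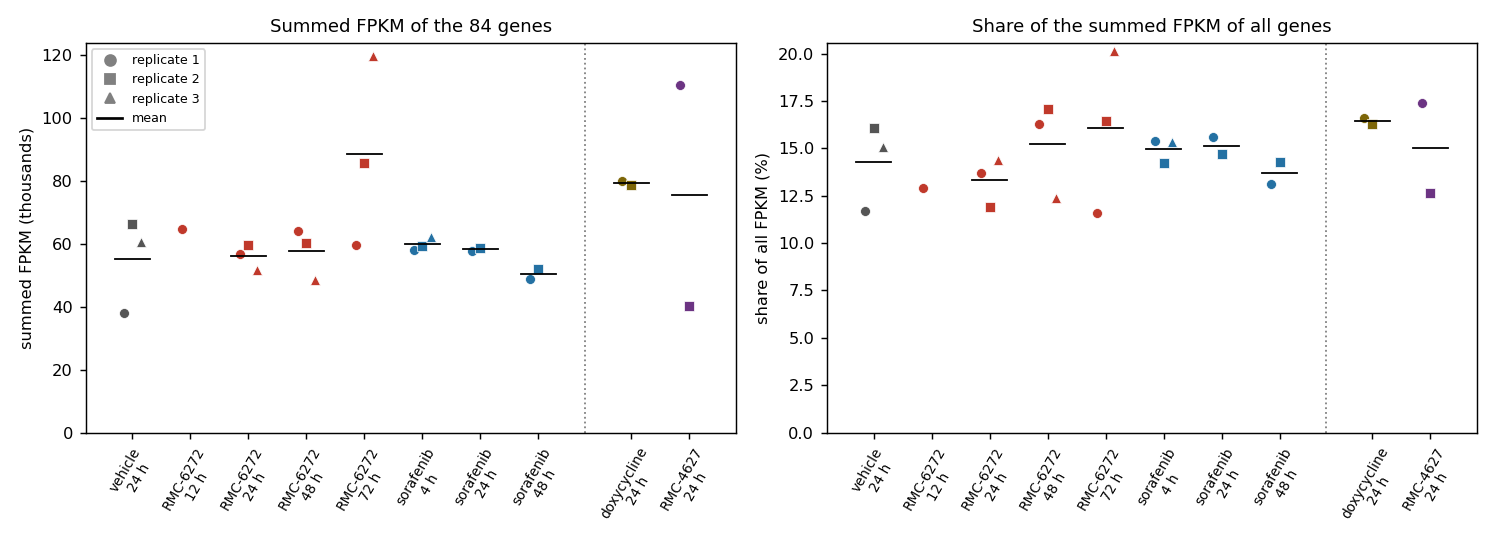
Summed FPKM of the 84 members (left) and their share of the FPKM of all genes (right, percent) in each library (points, shaped by replicate) with the group mean (line), by treatment and time; the doxycycline and RMC-4627 libraries, fitted apart, stand right of the dotted line. Vehicle runs from 37985 to 66488, and of the RMC-6272 72 h libraries replicate 1, at 59770, lies inside that range and the other two lie above it.

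RMC-6272 at 24 h was set against vehicle at 24 h to ask what mTORC1 inhibition does to expression in these tumours, and here what it does to the ribosomal protein messages. Of 84 members 0 rose and 4 fell by limma at a Benjamini-Hochberg adjusted p under 0.05, while 35.2% of all 13594 genes tested were called, 14.8% higher and 20.3% lower. At an unadjusted p under 0.05 there were 5 members, against 46.5% of all genes. The members that fell were Rpl7l1, Rpl13a, Rps27l and Rps10, and 2 of them, Rpl7l1 and Rps27l, are paralogs of standard ribosomal proteins. The median log2 difference of the members was 0.03, that of all genes -0.01, and the 95% interval lay within 1 log2 unit either way for 77 of 84.

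Rpl7l1, related to Rpl7 and the counterpart of the yeast assembly factor Rlp7, which works on the pre-60S particle in the nucleolus, had the clearest difference. It was at 65.7, 85.4 and 76.8 FPKM in vehicle and at 34.1, 39.9 and 37.3 with RMC-6272. The groups did not overlap, and the fall was by 1.01 ± 0.16 (log2 ± SE, limma adjusted p = 0.0010). It stayed past the threshold in all 17 alternatives tried, with adjusted p from 0.00065 to 0.011. The partner gene Rpl7 was at 482, 642 and 654 FPKM in vehicle and 534, 630 and 596 with RMC-6272, a difference of 0.00 ± 0.19. The ratio of Rpl7l1 to Rpl7 was 0.129 ± 0.010 in vehicle and 0.0633 ± 0.0006 with RMC-6272 (SD, n = 3 each).

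The other 3 calls were weaker. Rps27l, a paralog of Rps27 that p53 is known to induce, was at 322, 468 and 500 FPKM in vehicle and 192, 376 and 227 with RMC-6272, groups that overlap, and fell by 0.73 ± 0.27 (limma adjusted p = 0.049). Its partner Rps27 was at 651, 654 and 809 against 773, 1036 and 834, a difference of 0.32 ± 0.25 (adjusted p = 0.34), and the ratio of the pair was 0.609 ± 0.111 in vehicle and 0.295 ± 0.061 with RMC-6272. Rpl13a, a 60S protein also known for a role in silencing inflammatory messages, was at 60.9, 90.9 and 96.9 against 51.5, 46.6 and 48.9. These groups did not overlap, and the fall was by 0.72 ± 0.27 (adjusted p = 0.048). Rps10, a 40S protein mutated in some cases of Diamond-Blackfan anaemia, was at 5.53, 6.86 and 5.77 against 5.13, 3.16 and 4.88, also without overlap, and fell by 0.40 ± 0.15 (adjusted p = 0.045). Its low level is subject to the limit on read counting given above. Rps27l held in 8 of 17 alternatives, Rpl13a in 7 and Rps10 in 5, with highest adjusted p of 0.18, 0.25 and 0.25. Without vehicle replicate 1 the count was 5 members, without vehicle replicate 2 or 3 it was 1 each, and without RMC-6272 24 h replicate 2 or 3 it was 2 each.

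Beyond the 4 members that fell, the groups by role showed no called difference at 24 h. The stalk genes Rplp0, Rplp1 and Rplp2 differed by 0.07 ± 0.25, 0.16 ± 0.32 and 0.23 ± 0.31. Rpl5 and Rpl11, which join 5S RNA and can bind Mdm2 when assembly fails, differed by 0.12 ± 0.21 and -0.05 ± 0.26. Rps6, the 40S protein that S6 kinase phosphorylates downstream of mTORC1, was at 632, 828 and 740 FPKM in vehicle and 773, 849 and 761 with RMC-6272, so the groups overlapped (0.12 ± 0.19, adjusted p = 0.64). Rpl3, of the peptidyl transferase centre, was 0.19 lower (-0.19 ± 0.19) and Rpl10, which joins the 60S subunit last, 0.42 higher (0.42 ± 0.19, adjusted p = 0.088), and neither passed. Rps4x, Rpsa, Rps3 and Rps19 of the small subunit differed by 0.18 ± 0.23, -0.01 ± 0.22, -0.15 ± 0.22 and 0.09 ± 0.30. Rpl22 and its paralog Rpl22l1 differed by -0.16 ± 0.23 and -0.32 ± 0.28, and their ratio was 0.223 ± 0.015 against 0.199 ± 0.021.

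Treated and vehicle libraries were fully separated in 9 members, 4 higher (Rpl10, Rpl10a, Rpl12, Rps4x) and 5 lower (Rpl13a, Rpl26, Rpl3, Rpl7l1, Rps10), and in 50.1% of all genes. Members with a long pyrimidine run in the start window and those with a shorter one had like medians, 0.01 over 24 and 0.03 over 36. Among the members closest to the threshold without a call were Rpl7a (-0.41 ± 0.20, adjusted p = 0.12) and Rps2 (-0.55 ± 0.27, adjusted p = 0.12).

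Genes that build ribosomes did move in the same comparison. Of 46 genes of ribosome biogenesis 43 fell and 0 rose, with a median of -0.98. Examples were Bop1 (-1.15 ± 0.18) and Pes1 (-0.91 ± 0.15), partners in 60S maturation, Rrs1 (-1.09 ± 0.17), which brings the 5S particle to the pre-ribosome, and Mrto4 (-1.23 ± 0.20), the nucleolar relative of Rplp0 that holds the stalk site (limma adjusted p of 0.0010 or less each). The 3 not called, named after their values were seen, were Ddx10, Nol6 and Tsr1, with differences of -0.48, -0.39 and -0.57. Over 17 alternatives the count that fell was 33 to 44. Of 15 chaperones and importers of ribosomal proteins 12 fell and 0 rose (median -0.79), among them Znhit3 (-1.29 ± 0.18) and the importer Ipo5 (-1.09 ± 0.16), and the count was 5 to 12 over the alternatives. Aminoacyl-tRNA synthetases of the cytoplasm fell in 17 of 20 genes (median -0.75), with Gars at -1.06 ± 0.15 and Hars at -0.86 ± 0.13. Mitochondrial ribosomal protein genes, named Mrpl or Mrps, fell in 44 of 79 and rose in 1, Mrpl24 (0.39 ± 0.14), with a median of -0.62 (31 to 57 fell with 1 library left out). Whether these lists differ from the members was not tested.

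Genes whose messages share the TOP motif or sit in the mTORC1 pathway were mixed. Of 25 translation factors and other TOP genes 10 fell and 1 rose (median -0.25). This list shares genes with that of chaperones and importers, among them Ipo5 and Nap1l1 (-0.99 ± 0.18), which fell and count in both. With RMC-6272 24 h replicate 2 or 1 left out, or vehicle replicate 2 or 3, the count that fell was 5, 6, 6 and 6. The 1 that rose was Tpt1 (0.73 ± 0.26, adjusted p = 0.039), named after its value was seen, which passed in 9 of 17 alternatives. In the same list Pabpc4, a poly(A) binding protein, fell (-0.95 ± 0.19). The elongation factors Eef1a1 and Eef2 differed by 0.51 ± 0.24 and 0.54 ± 0.29 and did not pass (adjusted p = 0.12 and 0.16). Of 20 tested genes of the mTORC1, 4EBP and LARP list 7 fell and 1 rose: the cap-binding protein Eif4e fell (-1.38 ± 0.20), Eif4ebp1, which encodes 4EBP1, fell (-0.75 ± 0.24, adjusted p = 0.026), the kinase gene Mtor rose (0.38 ± 0.14, adjusted p = 0.046), and Larp1 did not pass (-0.56 ± 0.24, adjusted p = 0.082). Eif4ebp1 passed in 10 and Mtor in 7 of 17 alternatives. Fau and Rack1, which encode ribosomal proteins under other names, differed by 0.32 ± 0.34 and 0.13 ± 0.18. Of 18 p53 targets 2 rose (Eda2r and Fas) and 5 fell (Aen, Bbc3, Ccng1, Gtse1 and Zmat3). The count that fell was 1 without vehicle replicate 2 or RMC-6272 24 h replicate 3 and 3 without vehicle replicate 1 or 3 or RMC-6272 24 h replicate 2. Mdm2 and Cdkn1a differed by 0.01 ± 0.19 and -0.18 ± 0.38.

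Some cell type markers also differed at 24 h, where 14.8% of all genes were called higher and 20.3% lower. Of 14 hepatocyte markers 10 rose (6 without vehicle replicate 2 or RMC-6272 24 h replicate 2), and their summed level was 4770 to 7973 FPKM in vehicle and 15535 to 38069 with RMC-6272. Macrophage markers summed to 558 to 772 against 1382 to 1592, and 2 of 11 rose. Stellate markers rose in 2 of 8, Des (2.67 ± 0.50) and Pdgfrb (1.79 ± 0.37), and in 5 without vehicle replicate 3. Of 4 tested cholangiocyte markers 1 fell, Krt7 (-2.40 ± 0.46, limma adjusted p = 0.0019). Endothelial, erythroid, B or plasma cell and T or NK cell markers had 0 called. Of 5 oncofetal genes 2 rose, Afp (2.23 ± 0.42) and Gpc3 (2.83 ± 0.63), which mark liver tumour cells. The median of this list was 0.15, and H19 (-0.31 ± 0.35) and Dlk1 (0.15 ± 0.28) did not pass. Neutrophil markers summed to 1.52 to 3.26 against 12.0 to 46.2 with 0 of 7 called. All 14 hepatocyte and all 11 macrophage markers were detected in both groups, so the labelled liver tissue showed its defining markers. The part that such cells, or their RNA content, play in the members' levels was not tested. Each library has a description code, and the vehicle libraries share the first part of theirs with none of the RMC-6272 or sorafenib libraries, so a difference between codes and a treatment cannot be told apart.

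**Figure D3:**
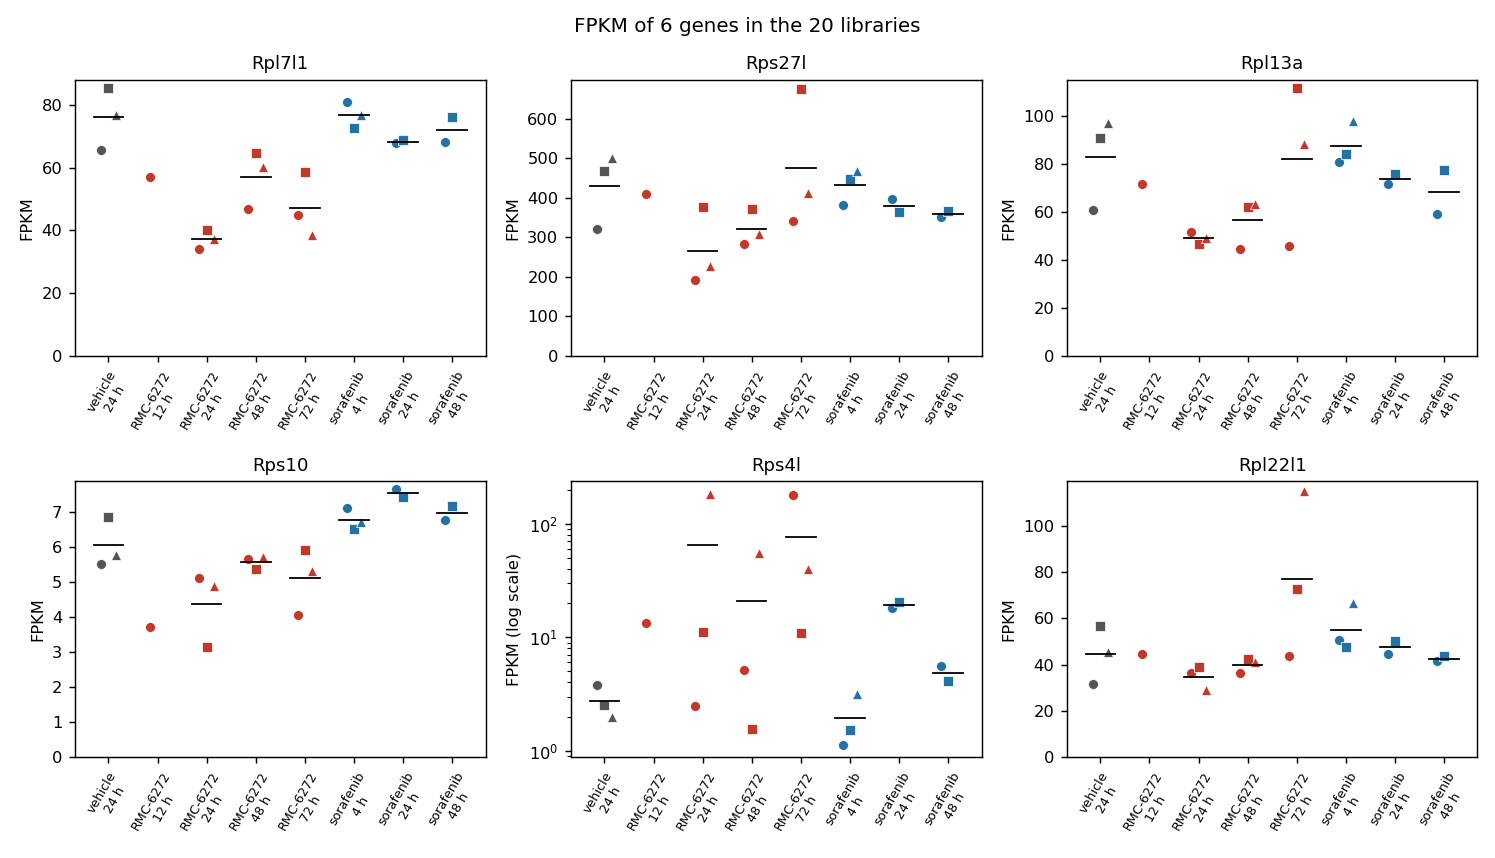
FPKM of Rpl7l1, Rps27l, Rpl13a, Rps10, Rps4l (log scale) and Rpl22l1 in each of the 20 libraries (points) with the group mean (line), by treatment and time. Rpl7l1 is at 34.1 to 39.9 in the RMC-6272 24 h libraries and 65.7 to 85.4 in vehicle, while the points of Rps27l overlap between these groups.

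At 48 h after RMC-6272, 0 of 84 members passed against vehicle by limma, where 0.11% of all genes were called. At an unadjusted p under 0.05 there was 1, against 21.9% of all genes. The members' median was 0.09 and that of all genes -0.03. Rpl7l1 was at 46.7, 64.6 and 60.04 FPKM, below every vehicle library, a difference of -0.41 ± 0.16 that did not pass (adjusted p = 0.17). It was the 1 member without overlap, against 31.5% of all genes. Rpl13a and Rps27l differed by -0.53 ± 0.27 and -0.40 ± 0.27 (adjusted p = 0.26 and 0.40). Ribosome biogenesis genes had 0 of 46 called at this time, 22 at an unadjusted p under 0.05, and a median of -0.46. Between 48 and 24 h of RMC-6272, 0 members passed by limma, with 0.5% of all genes called, and 1 reached an unadjusted p under 0.05, with 18.5% of all genes. Rpl7l1 was 0.60 ± 0.16 higher at 48 h (adjusted p = 0.085).

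At 72 h after RMC-6272, 23 members rose and 1 fell against vehicle by limma, where 26.6% of all genes were called, 10.7% higher and 15.8% lower. The median of the members was 0.57 and that of all genes 0.00, and 81 of 84 differences were positive. At an unadjusted p under 0.05 there were 58 members and 42.5% of all genes. The count of called rises depended on the libraries used. Without vehicle replicate 1, which stood apart, the count of rises was 0 and the median 0.38. Without RMC-6272 72 h replicate 3, which also stood apart, the count of rises was 0 and the median 0.35. Without 72 h replicate 1 it was 60, without 72 h replicate 2 it was 18, and without vehicle replicates 2 and 3 in turn it was 29 and 11. The share of all genes called in these fits is not given here. Under quantile normalization, which gives all libraries the same distribution, 0 members rose and 5 fell with a median of 0.01, while all genes split into 1113 higher and 2701 lower in place of 1458 and 2154. With each library's trend on transcript length removed, 1 rose and 3 fell, with a median of 0.05.

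The largest rises were in genes of both subunits, with Rpl36, a 60S protein, first. Rpl36 was at 1375, 3384 and 2819 FPKM in vehicle and 3048, 6156 and 8870 at 72 h. The groups overlap, since the lowest 72 h library lies below the highest vehicle library, and the rise was 1.22 ± 0.36 (limma adjusted p = 0.026). Rps15, a protein of the 40S head, was at 1087, 2320 and 2094 against 2407, 3859 and 5361, without overlap, and rose by 1.08 ± 0.30 (adjusted p = 0.020). Rpl41, with 75 bases the shortest coding length of the members, was at 626, 1458 and 980 against 1293, 1539 and 3960, with overlap, and rose by 1.05 ± 0.36 (adjusted p = 0.043). Rpl38 (0.99 ± 0.33), Rpl28 (0.98 ± 0.31) and Rpl31 (0.97 ± 0.28) of the large subunit and Rps29 (0.93 ± 0.29), Rps18 (0.86 ± 0.24) and Rps19 (0.93 ± 0.30), the gene mutated most often in Diamond-Blackfan anaemia, followed. Other rises, of 0.53 to 0.85, were those of Rpl37, Rps12, Rps20, Rpl12, Rpl23, Rpl17, Rpl13, Rpl24, Rps23, Rpl30, Rps27a and Rpl10. Of these, Rpl24 lies near the minimum, at 2.12 ± 0.35 FPKM in vehicle and 4.56 ± 2.48 at 72 h (SD, n = 3 each). It kept its call in 3 of 17 alternatives and Rpl10 in 5. A higher level in every 72 h library than in every vehicle library was seen in 8 members (Rpl10, Rpl12, Rpl17, Rps15, Rps18, Rps29, Rps3a2 and Rps4l) and a lower one in Rpl7l1, while 32.5% of all genes had no overlap.

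Shorter coding sequences went with larger differences at 72 h. Across 80 members with a coding length the rank correlation was -0.58, given as a description, since the members share the libraries and their length bias. It was -0.34 on transcript length and -0.22 on the merged exon length over all 84 members. The median coding length was 420 bases in the members that rose and 480 in the others. Rpl4, Rpl3 and Rplp0, among the longer members, differed by 0.19 ± 0.19, 0.08 ± 0.19 and 0.14 ± 0.25. At 24 h the rank correlation with coding length was -0.21. Members with a long pyrimidine run had a median of 0.60 (24 members) and those with a shorter one 0.53 (36 members).

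**Figure D4:**
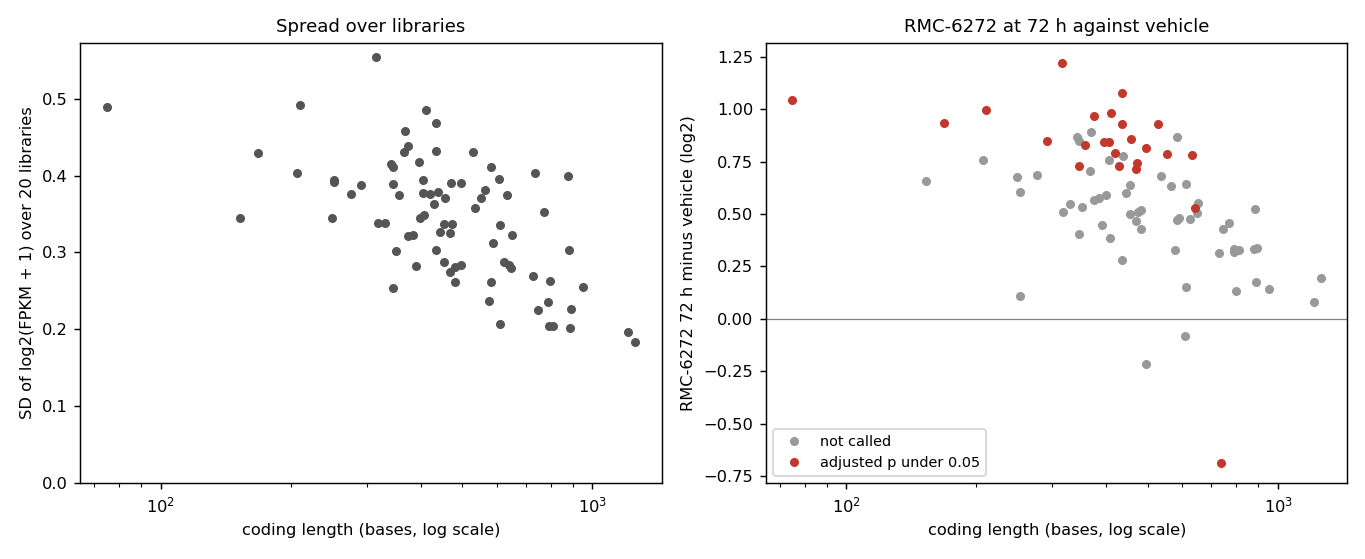
Standard deviation of log2(FPKM + 1) over the 20 libraries (left) and log2 difference between RMC-6272 at 72 h and vehicle (right) of each of 80 members against its coding length in bases (log scale), with called members in red on the right. The 72 h differences slope down with length (rho = -0.58), and Rpl7l1 is the red point below 0.

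Rpl7l1 was the exception to the rises. It was at 44.8, 58.5 and 38.4 FPKM at 72 h, below every vehicle library, and fell by 0.69 ± 0.16 (limma adjusted p = 0.012), past the threshold in 15 of 17 alternatives with adjusted p from 0.0016 to 0.17. Rps27l (0.11 ± 0.27), Rpl13a (-0.08 ± 0.27) and Rps10 (-0.21 ± 0.15) did not pass at this time. Rps27l at 341, 675 and 412 FPKM overlapped with vehicle. Of the groups by role, the stalk genes Rplp1 and Rplp2 differed by 0.87 ± 0.32 and 0.85 ± 0.31, and Rpl5 and Rpl11 by 0.34 ± 0.21 and 0.68 ± 0.26, all with adjusted p above 0.05. Rps6 was at 806, 867 and 1353 FPKM, a difference of 0.43 ± 0.19 (adjusted p = 0.093).

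Genes that build ribosomes were lower at 72 h. Ribosome biogenesis genes fell in 37 of 46 (median -0.78), with Dkc1, the pseudouridine synthase of rRNA, at -1.39 ± 0.21. This count was 24 without 72 h replicate 3, 25 without vehicle replicate 3, 46 without 72 h replicate 2 and 0 with both groups fitted alone. Chaperones of ribosomal proteins fell in 11 of 15 and tRNA synthetases in 13 of 20, and 0 of either list rose. Without vehicle replicate 2 these counts were 6 and 8, and without 72 h replicate 3 they were 7 and 10. Of the TOP list 7 of 25 fell and Tpt1 rose (1.06 ± 0.26, adjusted p = 0.012), and Larp1 fell (-0.99 ± 0.24, adjusted p = 0.013). Mitochondrial ribosomal protein genes fell in 11 of 79 and rose in 2, Mrpl52 (1.06 ± 0.26) and Mrps16 (0.69 ± 0.23). Of all genes 15.8% were called lower, so this count is not read as a fall of the list. Its median was -0.16, and 34 of 79 differences were positive. The count that fell was 3 to 6 without any 1 of the vehicle libraries or of 72 h replicates 1 and 3, and 31 without 72 h replicate 2. Fau, whose protein carries the 40S protein eS30, rose (1.10 ± 0.34, adjusted p = 0.031) and passed in 8 of 17 alternatives, not without vehicle replicate 1 or 3 or 72 h replicate 3, and Rack1 differed by 0.38 ± 0.18. Beside this, some cell type markers differed at 72 h too, where 10.7% of all genes were called higher. Of 14 hepatocyte markers 9 rose (median 1.76, 6 to 11 with 1 library left out), and their sum was 13033 to 32004 FPKM against 4770 to 7973 in vehicle, without overlap. Macrophage markers summed to 853 to 1870 against 558 to 772 and 3 of 11 rose (0 without vehicle replicate 1 or 3, 1 without 72 h replicate 1 or 3, and 7 without 72 h replicate 2). Neutrophil markers summed to 14.1 to 2876 against 1.52 to 3.26, also without overlap, and 4 of 7 rose (1, 2 and 0 without vehicle replicates 1, 2 and 3, and 7 without 72 h replicate 2). Erythroid markers, at 147 to 37463 against 60.9 to 446, overlapped, and 1 of 6 rose (6 without 72 h replicate 1, and 2 without 72 h replicate 2 or vehicle replicate 2). Stellate markers rose in 3 of 8 (1 without vehicle replicate 3). Of 5 oncofetal genes 0 passed, with a median of -0.02, and of 4 tested cholangiocyte markers 0 passed. Endothelial markers rose in 2 of 7 (0 without any 1 vehicle library or 72 h replicate 3, and 5 without 72 h replicate 2). T or NK cell markers rose in 2 of 6 (0 without vehicle replicate 1 or 72 h replicate 3, and 1 without vehicle replicate 2 or 72 h replicate 1). Their part in the members' levels was not tested.

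Between 72 and 48 h of RMC-6272, 0 members passed and 0.0% of all genes were called by limma, but 38 members and 20.9% of all genes had an unadjusted p under 0.05. The members' median was 0.52. The smallest p-values were those of Rpl28 (0.96 ± 0.31), Rps15 (0.91 ± 0.30) and Rpl22l1 (0.83 ± 0.28), with adjusted p of 0.14 to 0.15. The F test over 24, 48 and 72 h called 0 members and 0.0% of all genes, with 39 members and 27.2% of all genes at an unadjusted p under 0.05. Its smallest adjusted p-values were 0.093 for Rpl35a, 0.098 for Rpl22l1 and 0.11 for Rpl7l1.

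**Figure D5:**
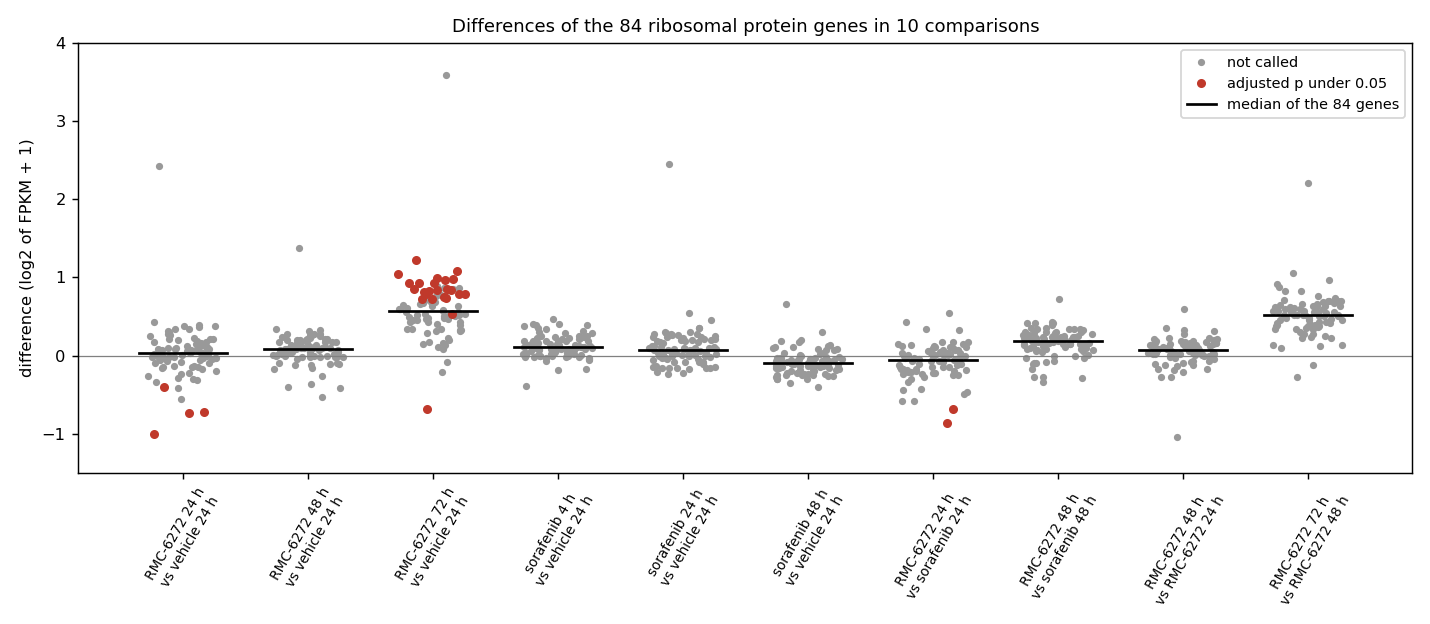
Difference on the log2(FPKM + 1) scale of each of the 84 members (points, red where the adjusted p is under 0.05) in 10 comparisons, 6 of them against vehicle, with the median as a line. The medians against vehicle are 0.03, 0.09 and 0.57 for RMC-6272 at 24, 48 and 72 h and 0.10, 0.07 and -0.10 for sorafenib at 4, 24 and 48 h.

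Sorafenib gave no call among the members at any time. By limma, 0 members passed against vehicle at 4 h (0.00736% of all genes called), at 24 h (0.0%) and at 48 h (0.0%), and 0 had an unadjusted p under 0.05 at each, against 1.79%, 3.82% and 1.47% of all genes. The medians were 0.10, 0.07 and -0.10, and the 95% interval lay within 1 log2 unit either way for 77, 77 and 81 of 84 members. Sorafenib and vehicle libraries did not overlap in 0, 5 and 2 members, and in 1188, 4150 and 2511 of 13594 genes. At 24 h these members were Rpl10a, Rps10, Rps4l and Rps4x, higher with sorafenib, and Rps27, lower. At 48 h they were Rps4l, higher, and Rps27, lower. The smallest p-values belonged at 4 h to Rpl8 (0.41 ± 0.26), Rpl29 (0.33 ± 0.23) and Rpl41 (0.47 ± 0.36), at 24 h to Rps4l (2.45 ± 1.43), Rps10 (0.28 ± 0.17) and Rps3a3 (0.36 ± 0.22), and at 48 h to Rpl7a (-0.35 ± 0.22), Rpl27 (-0.40 ± 0.29) and Rpl6 (-0.25 ± 0.20). Rpl7l1 was at 81.0, 72.6 and 76.7 FPKM at 4 h, 67.7 and 68.8 at 24 h and 68.0 and 76.1 at 48 h, and every one of these libraries lay inside the vehicle range. The comparisons with RMC-6272 above use the same vehicle libraries.

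RMC-6272 was also compared with sorafenib at matched times. At 24 h 0 members rose and 2 fell (limma), with 18.7% of all genes called, 7.47% higher and 11.3% lower, and 2 members and 36.0% of all genes had an unadjusted p under 0.05. Rpl7l1 was lower with RMC-6272 by -0.86 ± 0.18 (adjusted p = 0.0092). Rps10, at 7.66 and 7.44 FPKM with sorafenib, was lower by -0.69 ± 0.17 (adjusted p = 0.015). They kept their call in 13 and 12 of 16 alternatives, and without either sorafenib 24 h library, the lone one then being assumed to vary like the other groups, 0 members and 0 of all genes passed. The libraries of both drugs did not overlap in 33 members, 9 higher and 24 lower with RMC-6272, and 61.7% of all genes were so separated. At 48 h 0 members passed by limma, as did 0.00736% of all genes, and at an unadjusted p under 0.05 there were 0 members and 12.7% of all genes. The smallest p-values were those of Rpl7l1 (-0.34 ± 0.18), Rps10 (-0.28 ± 0.17) and Rpl39 (0.42 ± 0.27). Whether the difference between drugs itself changed from 24 to 48 h was tested as an interaction, with 0 members and 0.0% of all genes past the threshold by limma, and 0 members and 5.25% of all genes at an unadjusted p under 0.05. For Rpl7l1 that interaction was 0.52 ± 0.26 (adjusted p = 0.91).

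Rps4l, a paralog of Rps4x, varied widely between libraries of the same group. In vehicle it was at 3.77, 2.52 and 1.99 FPKM, and with RMC-6272 at 2.49, 11.1 and 183 at 24 h, 5.12, 1.57 and 55.4 at 48 h and 178, 10.9 and 39.95 at 72 h, with 13.3 in the 12 h library. With sorafenib it was at 1.13, 1.52 and 3.16 at 4 h, 18.0 and 20.5 at 24 h and 5.62 and 4.12 at 48 h. The 3 highest libraries, 24 h replicate 3, 72 h replicate 1 and 48 h replicate 3, share the first part of their description code, and the other library with that part had 11.1. Rps4x in the 20 libraries stayed between 749 and 1706. The difference of Rps4l at 24 h was 2.43 ± 1.28 (adjusted p = 0.15) and at 72 h 3.59 ± 1.28 (adjusted p = 0.051).

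The single RMC-6272 library at 12 h has no replicate and was not tested. Its Rpl7l1 was 56.8 FPKM, between the vehicle and the 24 h values, its Rps27l 410 and its Rps10 3.72. Its members lay at a median deviation of 0.05 from their means over the 20 libraries.

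The doxycycline and RMC-4627 columns ranked the members in another way and are set beside the others with no comparison of levels. Their members' order followed the mean of the 20 libraries with rho of 0.42 and 0.39 (doxycycline) and 0.33 and 0.47 (RMC-4627), where the 20 gave 0.961 to 0.996. Rplp1 was at 165 to 285 FPKM there, against 2507 to 10839 in the 20, and Rps3 at 814 to 9786 against 300 to 708. The members summed to 80018 and 78701 FPKM with doxycycline and to 110572 and 40286 with RMC-4627. In their own fit of 11058 genes, which held 80 members, 0 members and 0.0% of all genes passed between doxycycline and RMC-4627 by limma, and 1 member and 8.78% of all genes had an unadjusted p under 0.05. The smallest p-values were those of Rpl35a (80.0 and 166 FPKM against 26.6 and 7.49, 2.92 ± 0.80, adjusted p = 0.56), Rps10 (-1.36 ± 0.52) and Rpl19 (2.997 ± 1.47). With either RMC-4627 library left out, the spread comes from the doxycycline pair alone. The lone RMC-4627 library is then assumed to vary like that pair, so counts from such fits are not given. Rpl7l1 was at 72.3 and 64.2 FPKM with doxycycline and 50.1 and 123 with RMC-4627.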

How the data were processed

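The deposited values are FPKM per gene for 24 libraries; per the submitters' processing notes the authors aligned reads with STAR 2.5 to mm9 and counted with HTSeq 0.6.1, and the gene lengths used are not given in the sources used here. Genes were taken by name, and 27 names turned to dates and 102 entries with a shared symbol were left out. With annotated lengths, 98.1 to 98.6% of low values (up to 20 reads, tolerance 0.02) came out as whole reads in 20 libraries, a depth of 17.6 to 41.7 M reads, and 3.34 to 3.77% in the doxycycline and RMC-4627 libraries, whose depth is unknown and which were fitted apart. Low members rest on few reads (Rps3a3: 20 to 56), and, with no molecular identifiers, precision from read numbers covers counting error only.

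Tests covered genes reaching 1 FPKM in 2 or more fitted libraries, on log2(FPKM + 1), which understates changes of low genes, with limma 3.58.1 (eBayes with trend, R 4.3.3). The model had 8 group means over 20 libraries. Tests were two-sided, Benjamini-Hochberg adjusted over all genes tested, threshold 0.05. The code was tested on simulated data. Figures and summaries used Python 3.11.15, pandas 2.3.3, scipy 1.17.1 and matplotlib 3.10.9. Members and lists were chosen with earlier results of these data known. Named are up to 10 called members per direction and comparison (or the 3 with the smallest p), the highest and lowest in level and the 5 highest and lowest in spread, a set list by role, and up to 4 genes per list; other names were chosen after their values were seen. Alternatives were another pseudocount, filters, scalings, models and each library left out, and, chosen after seeing the data, removal of the transcript length trend and leaving out both libraries that stand apart. The start windows come from RefSeq, GRCm38.p6. No protein sequences were used here. Some genes that the naming rule takes are not reported here by name.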

Additional observations from a re-analysis of the deposited data

How the results depend on the processing

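Members called are given by comparison. The share of all genes called is not given here for most alternatives. A change in count is therefore not read as particular to the members. For RMC-6272 24 h against vehicle the count was 4. It became 1 with no filter on low values, with median-ratio scaling, with all 24 libraries in one fit and with the description code as a random block, 2 with both groups fitted alone, 10 with quantile normalization, 7 (1 higher) with the transcript length trend removed, 6 without vehicle replicate 1 and 72 h replicate 3 together, and 1 to 5 with 1 library left out. For 72 h against vehicle the count was 24. It became 1 with no filter, 5 with quantile normalization, 0 with 24 libraries and with both groups alone, 4 with the length trend removed, 1 without vehicle replicate 1 and 72 h replicate 3 together, and 1 to 61 with 1 library left out. For 24 h RMC-6272 against sorafenib the count was 2, with 7 under quantile normalization, 0 with 24 libraries and 0 to 2 with 1 library left out. Left out one at a time, libraries gave 0 to 1 for 48 h against 24 h, 0 to 39 for 72 h against 48 h, 0 to 44 for the F test, 0 to 42 for doxycycline against RMC-4627 (fits whose spread comes from 1 pair), and 0 for the rest. Under quantile normalization the 72 h differences of Rpl10 (-0.22), Rpl17 (-0.21), Rpl36 (-0.022), Rps12 (-0.0070) and Rps23 (-0.0015) turned sign. The cause was not tested. With the replicate number as a block, 3 members were called at 24 h and 24 at 72 h, and the block changed no other count of calls; the numbers do not pair the samples, with correlations of same-numbered libraries from -0.50 to 0.49. Of the single-gene differences under alternatives, 254 kept direction and side of the threshold and 249 kept direction but lost the threshold. Depth limits the lowest members, and 17.6 M reads in 72 h replicate 3 is the least.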
